A study of Mus musculus with 6 samples.

Results

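The clustered histone genes are the protein-coding genes of the deposited mouse count table whose names begin with Hist1h to Hist4h, one prefix for each of the histone gene clusters. The table held 54532 genes, 22046 of them protein-coding, and 67 met this rule: 6 encode the linker histone H1, 18 encode H2A, 18 encode H2B, 12 encode H3 and 13 encode H4. On the GRCm38 build, 54 of them lie on chromosome 13, 10 on chromosome 3, 2 on chromosome 11 and 1 on chromosome 6. RNA came from mouse endothelial cells in culture, the lining cells of blood vessels, exposed for 72 h to a lentivirus. The virus carried an empty vector in the control group (n = 3) and RBPMS, a protein that binds RNA through an RRM domain, in the RBPMS group (n = 3). Both groups thus received a virus, and libraries were made from total RNA after removal of ribosomal RNA. No label says whether the replicates of a group were separate cultures, so p-values measure the spread between these libraries, which may be technical.

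H2A, H2B, H3 and H4 form the protein core around which DNA is wrapped, and H1 binds the DNA between these cores. Most genes of the clusters are switched on during S phase, when new chromatin is assembled. Their mRNAs have no introns and usually no poly(A) tail: they end just after a conserved stem-loop, which is bound by the protein SLBP and cut with the help of the U7 small nuclear ribonucleoprotein. Some of the genes also make longer, polyadenylated transcripts, chiefly in cells that have stopped dividing.

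The stem-loop was searched in the annotated transcripts because it tells where the short histone mRNA ends inside each gene model. The 16-base motif was GGNNNTTTTNAGNNCC, with any base at N, read on the sense strand of GENCODE M21 transcripts (GRCm38). It was found in 44 of 67 clustered histone genes (65.7%), against 127 of 21901 protein-coding genes (0.58%) with these 44 included. On the opposite strand it was found in 78 protein-coding genes (0.36%), none of them a clustered histone gene. It took 6 forms, each given here by 1 gene with 7 bases on either side and the motif in capitals.
Hist1h1c, chr13:23739512-23739527, plus strand, form shared by 26 genes: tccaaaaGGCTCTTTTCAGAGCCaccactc
Hist1h4h, chr13:23531458-23531473, plus strand, form shared by 7 genes: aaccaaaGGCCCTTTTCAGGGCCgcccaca
Hist1h2bk, chr13:22036300-22036315, plus strand, form shared by 6 genes: caccaaaGGCTCTTTTAAGAGCCactaaac
Hist1h4i, chr13:22040966-22040981, minus strand, form shared by 2 genes: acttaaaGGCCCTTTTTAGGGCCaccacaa
Hist1h4j, chr13:21735437-21735452, plus strand, form shared by 2 genes: ccctaaaGGTCCTTTTCAGGACCaccacat
Hist2h2ac, chr3:96220418-96220433, minus strand, form found in 1 gene: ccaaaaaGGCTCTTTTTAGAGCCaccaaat
The bases at both ends of the capitals pair to form the stem, and those in the middle, mostly T, form the loop. The 26 genes with the form of Hist1h1c belong to the H1, H2A, H2B and H3 classes, while the forms of Hist1h4h, Hist1h4i and Hist1h4j were found only in H4 genes among the 44. A missing match says only that these letters are not in the annotated transcript.

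Library depth ran from 15779567 counts (control replicate 1) to 23076124 (control replicate 3). Rbpms itself was at 57.5, 56.7 and 54.3 CPM (counts scaled to the library total) in the controls and 131, 148 and 133 CPM in the RBPMS libraries. Control replicate 3 stood apart: its log2 CPM correlated at 0.954 to 0.960 with the other 5 libraries, which correlated with each other at 0.991 to 0.995. Its difference from the other controls ran along gene length, with medians of 0.63 (log2) for the shortest 2780 of the tested genes and -0.50 for the longest 2780. Each result is therefore given with all 6 libraries and without control replicate 3. All 10 endothelial markers passed the filter on low counts and summed to between 14948 and 20292 CPM. Summed markers of fibroblasts and smooth muscle lay between 5.37 and 8.68 CPM, and those of heart muscle cells between 0.13 and 1.15 CPM. Leukocyte markers summed to between 41.2 and 58.4 CPM. Nearly all of this was Cd68, at 41.7, 46.4 and 41.0 CPM in the controls and 53.3, 58.3 and 54.9 CPM with RBPMS, while Ptprc, which defines leukocytes, lay between 0 and 0.165 CPM. Without control replicate 3, edgeR called Cd68 higher (log2 fold change 0.34 ± 0.07, edgeR adjusted p = 0.0054). It also called the endothelial marker Erg higher, and the endothelial markers Vwf, Flt1 and Kdr lower. Over all genes 3.81% were called higher and 3.43% lower there. With all 6 libraries none of these markers was called. Their log2 fold changes were then 0.36 for Cd68, 0.32 for Erg, -0.18 for Vwf, 0.02 for Flt1 and -0.01 for Kdr. The part of these marker changes in the histone results was not tested.

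Few of the clustered histone genes were seen at more than a trace. At least 1 count was recorded for 52 of 67 in any library, 26 had between 1 and 9 counts summed over the 6 libraries, 26 had at least 10, and 8 had at least 100. A count in every library was recorded for 20, and 7 reached a mean of 1 CPM. All 67 together held 8201 counts, 0.00712% of the counts in the table. Hist1h1c alone supplied 58.9% of these, between 56.1% and 61.6% by library, and the 7 genes with the most counts supplied 90.6%.

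The 15 genes with no count in any library were the H2A genes Hist1h2aa, Hist1h2af, Hist2h2aa1, Hist2h2aa2 and Hist2h2ab, the H2B genes Hist1h2ba, Hist1h2bl, Hist1h2bm, Hist1h2bn, Hist2h2bb and Hist3h2ba, the H3 genes Hist2h3b and Hist2h3c1, and the H4 genes Hist1h4m and Hist1h4n. All 6 H1 genes had counts. Of the protein-coding genes as a whole 27.0% had no count, against 22.4% of the clustered histone genes. The histone gene models are short, with a median of 539 bases, and of those of at most 700 bases 14 of 40 (35%) had no count, against 69.0% of the 923 protein-coding genes of that length. A count of 0 allows up to 3 counts, which is 0.190 CPM in the shallowest library and 0.13 CPM in the deepest, and such limits cover counting error only.

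The testis-type genes of the clusters, which serve developing germ cells, were at or near 0. Hist1h2aa and Hist1h2ba had no counts, and the testis linker histone Hist1h1t had 3 counts in all, 1 each in control replicates 2 and 3 and RBPMS replicate 1. All bases of the Hist1h1t transcript lie in stretches found in no other gene.

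Detection of the clustered histone genes did not separate the groups. The controls had counts for 31, 34 and 43 of the 67 genes and the RBPMS libraries for 43, 39 and 28, so the groups overlapped from end to end. Over the whole table they did not overlap, with 20113, 19799 and 19865 genes detected in the controls and 20754, 20974 and 21087 with RBPMS. Control replicate 3, the deepest library, had counts for 43 of the 67, and without it 49 of them rather than 52 had a count in any library. The 3 genes seen there alone were Hist1h4b, Hist1h2an and Hist1h2ag. Counts in controls alone were recorded for 7 genes, these 3 among them, each with only 1 or 2 counts in all. Counts in RBPMS libraries alone were recorded for 1, Hist1h2ai, with a single count. Numbers this small say nothing of a difference between groups.

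Most counts lay in genes whose annotated model ran well past the stem-loop. A distance of 100 bases, chosen after the values were seen, split the 44 genes with the motif into groups of 22. Among the 22 with more than 100 annotated bases after the stem-loop, 20 had counts and 16 had at least 10, with a median of 30.5 counts. Among the 22 with at most 100 bases after it, 17 had counts and 3 had at least 10, with a median of 4 and a highest total of 42 in Hist1h4h. The first group held 80.8% of the counts of all clustered histone genes and the second 1.55%. Hist1h1c, with 4828 counts, made up most of the first share, and without it the shares were 53.3% and 3.77%. Per kilobase of gene length, the median level was 0.161 CPM in the first and 0.0536 CPM in the second. The remaining 23 genes, in whose transcripts the motif was not found, held 17.6%, with a median of 4 counts and a highest total of 763 in Hist1h2bc.

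**Figure D1:**
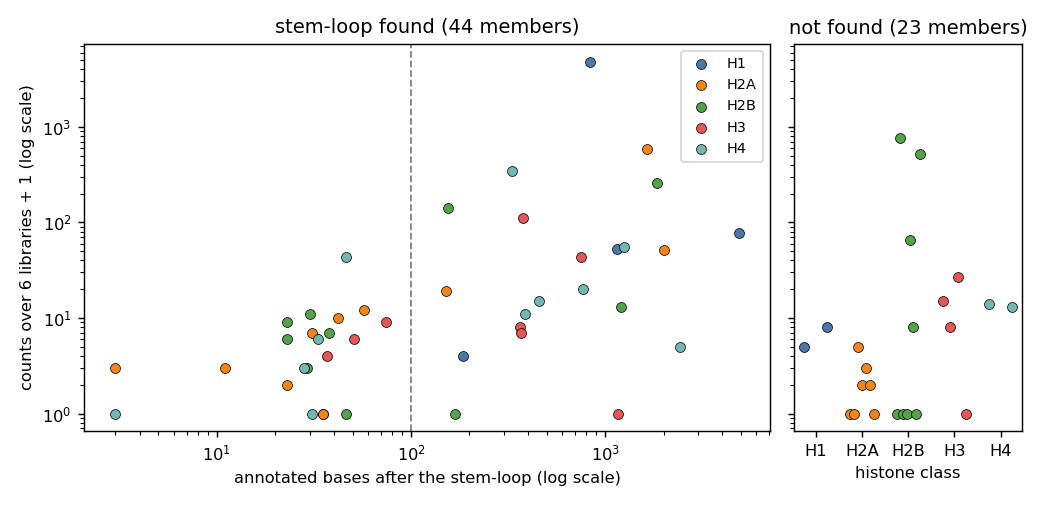
Total counts of each clustered histone gene over 6 libraries, plus 1, on a log scale, against the annotated bases after its stem-loop, also on a log scale (left, 44 genes), and by histone class for the 23 genes without the motif (right). Points are genes coloured by class and the dashed line marks 100 bases. Left of the line no gene passes 42 counts, and right of it 16 of 22 have at least 10.

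These groups differ in other ways that bear on what a count can say. The long-tailed models had a median length of 1255 bases, against 483.5 for the short-tailed ones. A gene's own words, meaning 31-base stretches found in its transcripts and in those of no other gene, made up a median of 71.5% of the long-tailed models and 34.9% of the short-tailed ones. Across the 67 genes, Spearman's rho of total counts was 0.62 with annotated length and 0.58 with the number of own words, both within the same 6 libraries and given as a description. The part of length, of own words and of transcript ends in the counts was not tested.

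Own words did not always go with counts. Of 27 genes in which at least 50% of the words were their own, 18 had at least 10 counts and 9 had fewer. Among the 9 were the linker histone genes Hist1h1b, with 96.1% own words and 7 counts, and Hist1h1a, with 99.7% and 4. Hist4h4 had 88.5% own words and 2445 annotated bases after its stem-loop, yet 4 counts. Hist2h2ab, an H2A gene of chromosome 3, had none.

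Near-identical sequence limits what can be assigned to single genes. The 67 genes encode 31 distinct proteins, and 44 share their protein with another of the 67. All 13 H4 genes encode the same 103-residue protein, 9 H2A genes share a protein, and 7 and 4 H3 genes share theirs. Nothing in the sources used here says how reads matching several of them were divided, so values of genes with few own words are uncertain. In addition 7 of the 67 overlap another gene on the same strand and 21 overlap one on the other strand.

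Read as a whole, the summed level of the 67 genes was 55.7, 60.0 and 93.0 CPM in the controls and 68.4, 68.8 and 72.7 CPM in the RBPMS libraries. The RBPMS libraries lay close together, above control replicates 1 and 2 and below control replicate 3. The log2 ratio of the group means was 0.01 with all 6 libraries. It was 0.28 without control replicate 3, a 1.21-fold higher level, from 57.8 ± 3.0 CPM (SD, n = 2) to 70.0 ± 2.4 CPM (SD, n = 3). Control replicate 3 was 1.61-fold above the mean of the other controls, a wider gap than that between groups. The shortest 2780 of all tested genes were also higher in that library, by a median of 0.63 (log2). No test was run on this sum, and in bulk RNA fewer cells making a transcript and less of it per cell cannot be told apart.

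By class, the linker histones summed to 32.7, 35.7 and 58.6 CPM in the controls and 42.1, 41.0 and 42.9 CPM with RBPMS. H2B genes followed with 13.8, 12.9 and 19.0 CPM against 13.7, 15.3 and 17.6 CPM. H2A genes summed to 5.07, 6.04 and 7.54 CPM against 6.11, 5.12 and 5.77 CPM. In these last 2 classes the groups overlapped with or without control replicate 3. H4 genes lay at 3.11, 3.82 and 5.50 CPM against 4.11, 5.30 and 4.4 CPM. H3 genes were lowest at 1.01, 1.54 and 2.43 CPM against 2.35, 2.09 and 2.09 CPM. The log2 ratios of the class means without control replicate 3 were 0.30 for H1, 0.03 for H2A, 0.22 for H2B, 0.77 for H3 and 0.41 for H4. Over all 6 libraries they were -0.01, -0.13, 0.03, 0.39 and 0.15 in the same order, so H1 and H2A changed sign with that library.

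**Figure D2:**
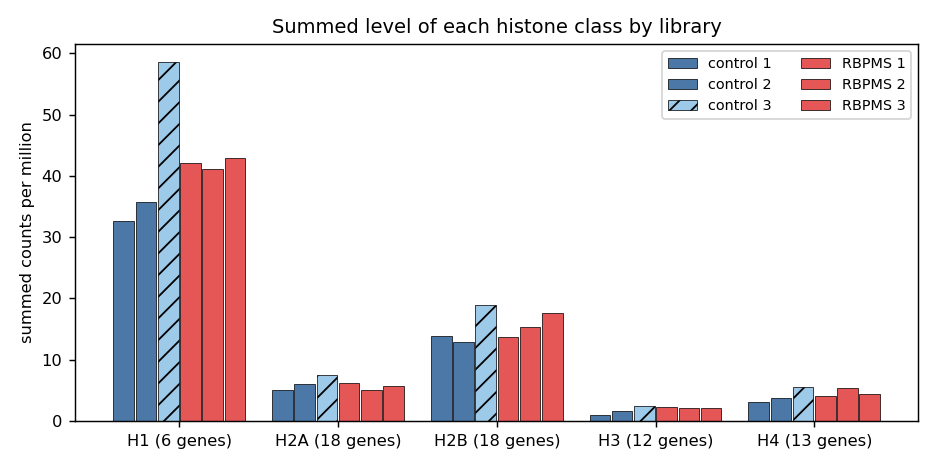
Summed level in CPM of the H1, H2A, H2B, H3 and H4 genes of the clusters, 1 bar per library from 0, with control replicate 3 hatched. In every class control replicate 3 is the highest library, and H1 reaches 58.6 CPM there against 41.0 to 42.9 CPM in the RBPMS libraries.

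Single genes were tested across the whole table with edgeR's quasi-likelihood test, and a gene was called where its Benjamini-Hochberg adjusted p over all genes tested was under 0.05. The filter on low counts passed 12 of the 67 with all 6 libraries and 13 without control replicate 3, so most of the clustered histone genes have no test. Over all 6 libraries edgeR called 0 of 12, none of them had an unadjusted p under 0.05, and DESeq2 and limma-voom called 0. Of all 13898 genes tested edgeR and limma-voom called 0% and DESeq2 called 56, and 1050 had an unadjusted edgeR p under 0.05. In the 5 libraries without control replicate 3, 1 of 13 was called, Hist1h1c, higher with RBPMS, against 7.24% of the 14123 genes tested, 3.81% being higher and 3.43% lower. A share of 1 in 13 is near that background. DESeq2 and limma-voom also called 1 each, beside 776 and 981 of all 14123 genes. An unadjusted edgeR p under 0.05 was found for 3 of 13, beside 2951 of the 14123, a similar share.

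**Figure D3:**
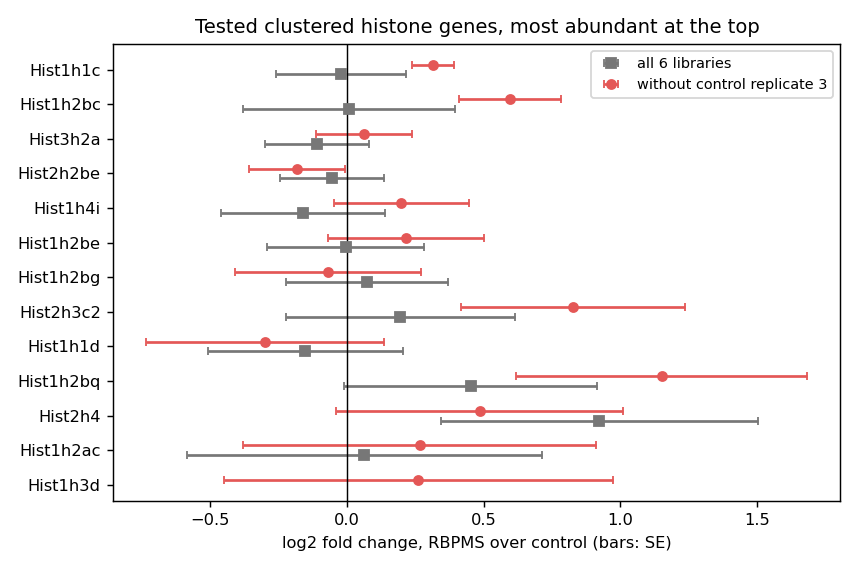
Log2 fold change of RBPMS over control for the tested clustered histone genes, most abundant at the top, with all 6 libraries (grey squares, 12 genes) and without control replicate 3 (red circles, 13 genes). Bars are standard errors. Hist1h1c lies at -0.02 with all 6 libraries and at 0.31 without control replicate 3.

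The direction of the tested genes also moved with that library. In those 5 libraries, 10 of 13 log2 fold changes were positive and 3 negative, with a median of 0.26 beside -0.0025 for all genes tested. The filter can pass a gene through 1 group alone, which favours values high in that group. Hist1h2bq had 0.317 and 0.246 CPM in control replicates 1 and 2 and 0.636, 0.698 and 0.549 CPM with RBPMS. The direction is therefore a description only. With at least 1 CPM in 3 libraries required, 7 genes had a median of 0.20, beside -0.0028 for all genes. Among all 6 libraries 6 of 12 were positive, and the median was 0.00089 beside -0.0083. In control replicate 3 the 12 genes tested in both lay a median log2 difference of 0.70 above the other controls, and Hist2h2be, Hist1h2bg, Hist1h1d and Hist2h4 lay below them. For the shortest 2780 of all tested genes, of 57 to 1933 bases, that median was 0.63. Not all of the 12 are that short. Hist1h2bq, Hist3h2a, Hist1h2ac, Hist2h2be, Hist1h2be and Hist1h1d run from 2015 to 7425 bases, and the longest 2780 tested genes had a median of -0.50. Hist1h2bg (618 bases) and Hist2h4 (1630 bases) are within that range yet lay below the other controls. The part of length in this shift was not tested.

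Hist1h1c encodes the linker histone H1.2, and its single-exon gene spans chr13:23738808-23740367 (GRCm38), with 840 annotated bases after the stem-loop shown above. Its level was 31.2, 34.6 and 57.3 CPM in the controls and 40.7, 40.0 and 41.8 CPM in the RBPMS libraries. The RBPMS libraries lay close together, above the first 2 controls and below control replicate 3. It rose with RBPMS in the 5 libraries without control replicate 3, by 0.31 ± 0.08 (SE) on the log2 scale (edgeR adjusted p = 0.015). Over all 6 libraries the estimate was -0.02 ± 0.24 on that scale (edgeR adjusted p = 0.968). The call was lost with control replicate 1 left out as well (log2 fold change 0.23, edgeR adjusted p = 0.217) and was made with control replicate 2 left out instead (0.40, edgeR adjusted p = 0.024). Of its 31-base words 88.6% were its own, and at a mean of 26.2 CPM per kilobase it stood far above every other clustered histone gene.

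The other linker histone genes were at low levels. Hist1h1d (H1.3) had 16, 9 and 13 counts in the controls and 15, 12 and 11 with RBPMS, spread over a gene model of 7425 bases. It was not called in either fit, with log2 fold changes of -0.30 ± 0.44 in the 5 libraries without control replicate 3 and -0.15 ± 0.36 in all 6. Hist1h1e (H1.4) had 6, 6 and 14 counts against 10, 9 and 7 and did not pass the filter. It overlaps Hist1h2be on the same strand, so reads of the 2 genes may be mixed.

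Among H2A genes Hist3h2a was the most abundant, from a gene at chr11:58954685-58956830 that overlaps Trim17 on the same strand. It lay at 4.50, 4.81 and 6.24 CPM in the controls and 5.18, 4.37 and 5.0 CPM with RBPMS, and the groups overlapped with or without control replicate 3. Its log2 fold changes were 0.06 ± 0.18 (5 libraries) and -0.11 ± 0.19 (6 libraries). Per kilobase, Hist1h2ae came next in this class at 0.211 CPM, with 1, 3 and 8 counts in the controls and 3, 2 and 1 with RBPMS, too few for the test. Hist1h2ac had 1, 11 and 12 counts against 9, 7 and 11, and its log2 fold change of 0.27 ± 0.65 without control replicate 3 was smaller than its standard error.

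H2B genes supplied the most tested genes of any class. Hist1h2bc has an annotated transcript of 2 exons over chr13:23684199-23692908, in which the stem-loop was not found. Its level was 4.94, 3.64 and 10.4 CPM in the controls and 5.48, 6.37 and 7.58 CPM with RBPMS. Control replicate 3 was above every other library, and without it all RBPMS libraries lay above both controls. The log2 fold change without it was 0.60 ± 0.19, which missed the threshold (edgeR adjusted p = 0.058), and with all 6 libraries it was 0.01 ± 0.39. The gene was called with RBPMS replicate 1 left out as well (0.71, edgeR adjusted p = 0.042), and with control replicate 2 left out as well its log2 fold change was 0.40 (edgeR adjusted p = 0.377).

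Hist2h2be, a single-exon H2B gene at chr3:96221119-96223738 with 97.2% own words, gave 4.94, 5.30 and 3.81 CPM against 4.20, 4.23 and 5.11 CPM. Here control replicate 3 was the lowest library, unlike in Hist1h2bc, and the groups overlapped. Its log2 fold changes were -0.18 ± 0.18 in the 5 libraries and -0.05 ± 0.19 in all 6. Hist1h2be and Hist1h2bg encode the same protein as Hist1h2bc. Hist1h2be lay at 1.77, 2.03 and 2.77 CPM against 1.96, 1.81 and 2.91 CPM. Hist1h2bg lay at 1.46, 1.17 and 0.953 CPM against 0.929, 1.44 and 1.37 CPM. Neither differed beyond the spread of its libraries, with log2 fold changes of 0.22 ± 0.28 and -0.07 ± 0.34 without control replicate 3. Hist1h2bq had the largest value among tested genes in that comparison, 1.15 ± 0.53 (edgeR adjusted p = 0.219), from 5, 4 and 17 counts against 13, 15 and 10. Only 1.7% of its words are its own. It encodes the same protein as Hist1h2br, and it is named here after its value was seen.

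**Figure D4:**
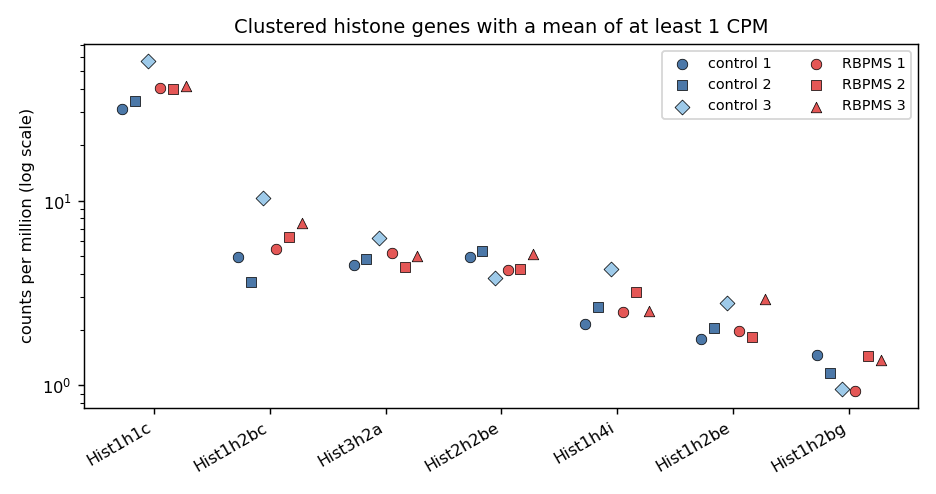
Level in CPM on a log scale for the 7 clustered histone genes with a mean of at least 1 CPM, with 1 point per library. Control replicate 3 (light diamonds) is the highest library for Hist1h1c, Hist1h2bc, Hist3h2a and Hist1h4i and the lowest for Hist2h2be.

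H3 genes were read from few counts. Hist2h3c2, at chr3:96238108-96239127, had 9, 9 and 32 counts in the controls and 20 in each RBPMS library, or 0.570, 0.555 and 1.39 CPM against 0.978, 0.931 and 1.10 CPM. Its RBPMS libraries again lay between the first 2 controls and control replicate 3. The log2 fold change was 0.83 ± 0.41 in the 5 libraries (edgeR adjusted p = 0.260) and 0.20 ± 0.42 in all 6, and 35.8% of its words are its own. Hist1h3i, the next by level per kilobase, had 0, 1 and 7 counts against 13, 3 and 2, with 6.8% own words. Hist1h3d passed the filter only without control replicate 3, with 0, 12 and 3 counts against 6, 12 and 9 and a log2 fold change of 0.26 ± 0.71. Its controls alone thus ran from none to as many counts as any RBPMS library.

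All counts of the H4 class belong to genes for 1 protein. Hist1h4i, at chr13:22040636-22041362, was the most abundant at 2.15, 2.65 and 4.25 CPM in the controls and 2.49, 3.21 and 2.53 CPM with RBPMS. The groups overlapped with or without control replicate 3, and its log2 fold changes were 0.20 ± 0.25 without it and -0.16 ± 0.30 with all 6. Its own words made up 64.7%, and 330 annotated bases follow its stem-loop. Hist1h4h, with 46 bases after the stem-loop, had 4, 5 and 10 counts against 6, 7 and 10 and did not pass the filter. Hist2h4 had 4, 10 and 3 counts against 15, 15 and 7, and its log2 fold changes of 0.49 ± 0.53 (5 libraries) and 0.92 ± 0.58 (6 libraries) were not called.

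The histone genes outside the clusters, grouped as replication-independent because most of them are not tied to S phase, were far more abundant. Summed over 11 genes they lay at 1357, 1393 and 2024 CPM in the controls and 1219, 1199 and 1160 CPM with RBPMS. Per kilobase, H3f3b (histone H3.3) stood at 151 CPM and H1f0, a linker histone of differentiated cells, at 137 CPM, against 26.2 CPM for Hist1h1c. Without control replicate 3, 0 of 10 tested genes were higher and 4 were lower with RBPMS, beside 3.43% lower of all genes, and the median log2 fold change over the list was -0.24. H3f3b fell by 0.26 ± 0.04, H1f0 fell by 0.33 ± 0.05 and Cenpa, the H3 of centromeres, fell by 0.34 ± 0.08 on the log2 scale (edgeR adjusted p = 0.0010, 0.00014 and 0.010). H2afz (H2A.Z) was the remaining one. With all 6 libraries none was called, all 10 log2 fold changes were negative, and the median was -0.47. Of the 10, 4 had an unadjusted edgeR p under 0.05, beside 1050 of all 13898 genes tested. Control replicate 3 lay above the other controls here too, by a median log2 difference of 0.60. With RBPMS replicate 1 left out as well as it, 3 genes were lower rather than 4, beside 267 of 13819 over all genes. With control replicate 1 left out instead, which leaves 1 control, the list median was -0.25. Whether this list and the clustered genes differ from each other was not tested.

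**Figure D5:**
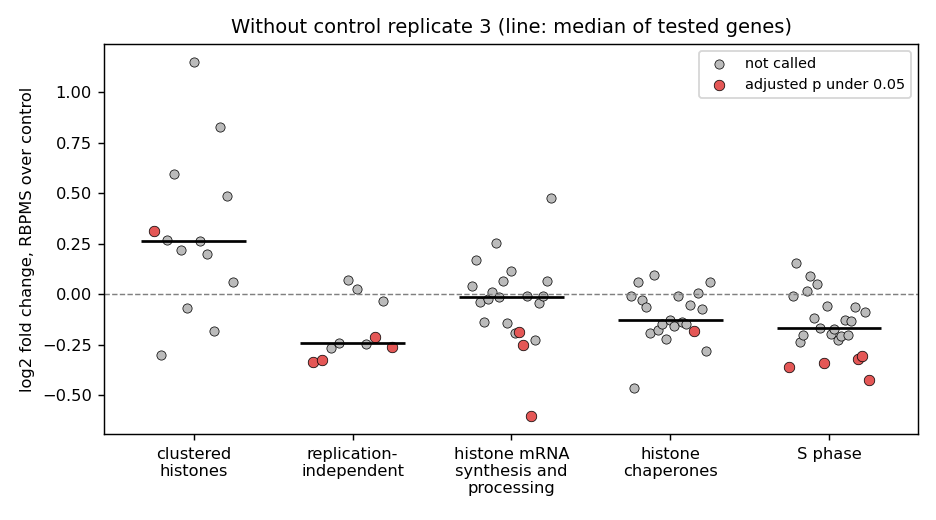
Log2 fold change of RBPMS over control without control replicate 3 for the tested genes of 5 lists, with red points for genes called by edgeR and a line at each median. The medians are 0.26 for clustered histone genes and -0.24 for replication-independent ones.

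Among genes that make and process histone mRNA, 0 of 21 were higher and 3 were lower without control replicate 3, Snrpb, Snrpf and Snrpd3, beside 3.81% higher and 3.43% lower of all genes, with a list median of -0.02. These encode Sm proteins, which the U7 particle shares with the spliceosome. Snrpf fell by 0.60 ± 0.16 and Snrpb fell by 0.19 ± 0.05 on the log2 scale (edgeR adjusted p = 0.024 and 0.018), and Snrpd3 was not called by DESeq2. Slbp, the stem-loop binding protein, was at 53.2, 50.2 and 77.3 CPM in the controls and 46.6, 41.9 and 46.8 CPM with RBPMS, and its log2 fold change of -0.19 ± 0.07 missed the threshold (edgeR adjusted p = 0.116). Npat, the activator of histone gene transcription, was at 43.9, 41.9 and 26 CPM against 45.9, 43.1 and 50.2 CPM, with 0.12 ± 0.08 (edgeR adjusted p = 0.428). Leaving out RBPMS replicate 1 as well gave 0 lower genes of the list, beside 267 of 13819 over all genes. With control replicate 1 or 2 left out instead, which leaves 1 control, the list medians were -0.0071 and -0.076. With all 6 libraries edgeR called none, and the median was -0.03. Of the 21, 2 had an unadjusted edgeR p under 0.05, beside 1050 of all 13898 genes tested.

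Of 21 histone chaperones, which carry histones to DNA, 0 were higher and 1, Rbbp7, was lower without control replicate 3, near the 3.43% lower of all genes, with a median of -0.13. Rbbp7 fell by 0.18 ± 0.05 on the log2 scale (edgeR adjusted p = 0.019). This count was 0 with RBPMS replicate 1 left out as well, beside 267 of 13819 over all genes. With control replicate 1 or 2 left out instead, which leaves 1 control, the chaperone medians were -0.05 and -0.15. Of 24 genes of S phase, when clustered histone genes are usually made, 0 were higher and 5 were lower, beside 3.81% and 3.43% of all genes, with a median of -0.17. They were Uhrf1, Mcm2, Ccna2, Rrm2 and Tk1, the last not called by DESeq2. Uhrf1, which helps copy DNA methylation, fell by 0.42 ± 0.07 (edgeR adjusted p = 0.00044). The S phase count was 2 with RBPMS replicate 1 left out as well and 8 with RBPMS replicate 3 left out. Over all genes 267 of 13819 and 426 of 13964 were lower in these fits. With control replicate 1 left out as well, which leaves 1 control, the S phase median was -0.07. With all 6 libraries edgeR called none of either list, with medians of -0.20 and -0.19. An unadjusted edgeR p under 0.05 was found for 1 of 21 and 5 of 24, beside 1050 of all 13898 genes tested.

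Other stable RNAs without a poly(A) tail, all short at 271 to 423 bases, mostly had few or no counts. Of 6 such RNAs, Rmrp, Rpph1, Rn7s1 and Rn7s2 had no count in any library. Rn7sk, the scaffold of the 7SK particle, had 15, 22 and 43 counts in the controls and 38, 54 and 17 with RBPMS, and Terc, the telomerase RNA, had at most 1 count a library. Per kilobase Rn7sk stood at a mean of 4.77 CPM, between Hist1h4i at 3.96 CPM and Hist1h2bc at 5.53 CPM. The part of length and of a missing poly(A) tail in the low counts was not tested.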

How the data were processed

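RNA sequencing counts of 6 libraries were used, 3 control and 3 RBPMS, grouped by title and treatment. The deposited values are whole-number counts per gene. The submitters' processing notes name FastQC, Salmon and the mm10 build. Tool versions, strand use and the step to whole counts were not given in the sources used here. Gene lengths are those of the deposited table.

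The members and lists were chosen with earlier results of these data known. All genes were fitted in R 4.3.3 with edgeR 4.0.16 (filterByExpr, TMM, group as the only term, glmQLFTest, Benjamini-Hochberg adjustment over all genes tested, threshold 0.05), checked on simulated data. Levels are CPM of the library total, without TMM, and fold changes are TMM-scaled. Standard errors were derived from the F statistic. Libraries of a group differed beyond sampling noise, with chi-square values per degree of freedom of 3.19 to 4.32 without control replicate 3 and of 130 and 137 with it. Common biological coefficients of variation were 0.196 with all 6 libraries and 0.049 without control replicate 3. Gene models, proteins and stem-loops came from GENCODE M21, where all 67 genes have the table's coordinates.

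Named genes were, by rule, the 2 highest per kilobase of each class, called genes, the 3 highest and 3 lowest fold changes with at least 1 CPM, and testis-type genes; Hist3h3 was not analysed here. Other genes were named after their values were seen. Of other lists, up to 3 called genes or 2 abundant ones were named. Alternatives were a replicate block, other scalings and filters, DESeq2 1.42.0, limma-voom (limma 3.58.1), length and GC offsets (loess span 0.3), summing genes with identical proteins, and leaving out each library.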

Additional observations from a re-analysis of the deposited data

How the results depend on the processing

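Counts were low: 26 clustered histone genes reached 10 counts and 7 reached 1 CPM in 3 libraries, against 52 with any count. Deviations from the group mean correlated at 0.05, -0.03 and 0.01 between libraries of the same replicate number. The control mean includes control replicate 3, which stands apart, so these values cannot settle whether replicate numbers pair libraries. With a replicate block no clustered histone gene was called in either set of libraries, and the call of Hist1h1c without control replicate 3 was lost (edgeR adjusted p = 0.056) at a similar log2 fold change (0.30 against 0.31). In that set the block also ended the calls of H2afz, Snrpf, Snrpd3 and Kdr. RBPMS replicate 3 has no control of its number there, so the block compares replicates 1 and 2 alone. Over all genes it called 917 of 14123. With all 6 libraries, leaving out each in turn gave 0 to 1 called genes and a median log2 fold change from -0.083 to 0.26, the upper ends being without control replicate 3. Without control replicate 3, called genes numbered 2 with no filter on low counts (median 0.45) and 2 with length and GC offsets, Hist1h1c and Hist1h2bc. Over all genes these 2 settings called 1280 of 25710 and 1395 of 14123, beside 1022 of 14123 in the main fit. Leaving out a further library there gave 0 (control replicate 1) to 2 (RBPMS replicate 1) called genes and medians from 0.11 (control replicate 1) to 0.40 (control replicate 2). With genes of identical protein summed and control replicate 3 left out, 1 was called, beside 1024 of 14119 over all genes. The median in that fit was 0.31 with the summed genes included. It was -0.06 over the 4 tested genes that share their protein with no other clustered histone gene. With all 6 libraries this summing gave 0 called genes and a median of -0.02. The log2 fold changes below changed sign, and none was called but that of Hist1h1c at 0.31 without control replicate 3. The cause was not tested. With all 6 libraries Hist1h1c was 0.037 with the replicate block, 0.030 by limma-voom and 0.10 with length and GC offsets. Hist1h2bc was -0.0060 with no filter, and Hist1h2be 0.0096 with the replicate block and 0.0041 with total library size. Leaving out each library in turn gave -0.19 to 0.31 for Hist1h1c, -0.21 to 0.062 for Hist3h2a, -0.27 to 0.60 for Hist1h2bc, -0.069 to 0.24 for Hist1h2bg, -0.025 to 0.83 for Hist2h3c2, -0.36 to 0.20 for Hist1h4i, -0.18 to 0.044 for Hist2h2be and -0.24 to 0.22 for Hist1h2be. Without control replicate 3, a further library left out gave -0.21 to 0.11 for Hist1h2bg and -0.0078 to 0.35 for Hist1h2be, which was -0.011 with the replicate block. With length and GC offsets there, 6 replication-independent histone genes, 3 chaperones and 9 S phase genes were lower, rather than 4, 1 and 5. Lower genes over the whole table rose too, to 742 of 14123 from 484. The summed level kept its log2 ratio between 0.22 and 0.33 there, and between -0.13 and 0.28 with all 6 libraries.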

Other observations

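The processed pseudogene Hist1h2al, which is not protein-coding and so no clustered histone gene by the rule used, had 79, 90 and 253 counts in the controls and 148, 116 and 89 in the RBPMS libraries. Its total of 775 counts is above that of every H2A gene of the clusters, the highest being Hist3h2a with 584, though not in every library. Of the 31-base stretches of Hist1h2al, 81.9% (253 of 309) also occur in a clustered histone gene, and 247 of them occur in Hist2h2aa1, which had no count in any library. Hist2h2aa2, which encodes the same protein as Hist2h2aa1, has 0 stretches of its own and had no count either. The pseudogenes Hist1h2aj and Hist3h2bb-ps had 1 count each.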
